A study of Mus musculus with 5 samples.

Results

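The H2- genes are the mouse genes of the major histocompatibility complex (MHC), a cluster on chromosome 17 that also holds Ddr1, the gene deleted in the knockout mice of this study. They were taken as every gene whose annotated symbol starts with H2- and that has a row of its own on the array. That gave 29 of the 19938 genes tested, with 20 class I genes, 8 class II genes and H2-Ke6, a steroid dehydrogenase gene of neither class. None of the 29 had more than 1 row. Another 8 rows carry several symbols that include an H2- gene, 15 such symbols in all, and 13 of these have no row of their own. The classical class I genes H2-K1 and H2-D1 and both H2-DMb genes are among these 13, so no value is given for them.

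The arrays (Affymetrix mouse gene 1.0 ST) measured total RNA taken directly from condylar cartilage of the lower jaw, the tissue that caps the jaw joint. The Ddr1 knockout group (labelled DDR-1-KO, n = 2, mice 2 and 5) and the wild-type group (n = 3, mice 3, 4 and 6) carry the same strain label, 129/Sv. The product of Ddr1 is a collagen receptor with tyrosine kinase activity. The labels give no age or sex, and they do not describe the deleted allele. The array names carry 2 dates. Knockout 2 and wild type 3 share date 1, while knockout 5 and wild types 4 and 6 share date 2. Each label names a mouse, and nothing says how the mice were bred, so the p-values measure the spread between these 5 arrays alone.

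Class I molecules sit on nearly all nucleated cells and show peptides from inside the cell to CD8 T cells. Class II molecules are made mainly by B cells, dendritic cells and macrophages, and show peptides taken up from outside to CD4 T cells. Transcription of class II genes depends on a pair of promoter elements called the X and Y boxes, on which the coactivator CIITA is assembled. Many of the H2-Q, H2-T and H2-M genes are nonclassical, with restricted expression or other ligands, and several are pseudogenes.

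Short stretches of promoter letters were counted in both classes. The RefSeq promoter table (GRCm38.p6, 250 bases before to 50 bases after the start) held 22 of the 29 genes. The class II genes H2-Ab1 and H2-Ea were not among them. The Y box core GATTGG, on either strand, was in a promoter of 6 of 6 class II genes and 10 of 15 class I genes, against 16.11% of all 32851 promoters. Those class I genes were all H2-M genes except H2-Q4. A gene counted if any of its promoters held the letters, while the shares over all are per promoter. The letters GCAAC, the core of the X box here, followed on the same strand after 15 to 35 bases by GATTGG, were in 5 of 6 class II and 0 of 15 class I genes, against 0.37% of all promoters. The X box letters and the spacing were chosen after these promoters had been read, so the counts of the pair describe these promoters and test no difference between the classes. The 5 class II stretches are printed because these genes are compared below, with both motifs in capitals. H2-Aa lies at chr17:34287852-34287919 (minus strand), H2-Eb1 at chr17:34305761-34305827, H2-Eb2 at chr17:34325528-34325594, H2-Oa at chr17:34092288-34092355 and H2-Ob at chr17:34238803-34238867 (plus strand for these 4).
H2-Aa: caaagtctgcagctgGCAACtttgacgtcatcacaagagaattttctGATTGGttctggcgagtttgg
H2-Eb1: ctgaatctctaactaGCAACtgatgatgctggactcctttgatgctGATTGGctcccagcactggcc
H2-Eb2: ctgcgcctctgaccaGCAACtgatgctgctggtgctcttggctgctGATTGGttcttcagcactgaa
H2-Oa: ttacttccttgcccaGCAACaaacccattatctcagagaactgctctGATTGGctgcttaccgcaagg
H2-Ob: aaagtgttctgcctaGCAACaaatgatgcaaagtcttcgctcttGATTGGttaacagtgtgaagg

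Among class I genes, the promoters of H2-M1 and H2-Q4 are printed because these genes had the lowest adjusted p of the 29, with changes in opposite directions. Capitals mark the Y box core, which here stands as its reverse complement. They also mark GGGGATT, a part of the NF-kB element of classical class I promoters, and GTTTCACTT, a part of their interferon element. H2-Q4 holds all of them, while H2-M1 holds the Y box core alone. Searched on either strand, GGGGATT was in 3 of 15 class I genes and 3.1% of all promoters. The interferon letters were in 3 of 15 class I genes and 0.4% of all promoters. A match is a stretch of letters and no evidence of binding. H2-M1 lies at chr17:36672148-36672447 (minus strand) and H2-Q4 at chr17:35379367-35379666 (plus strand).
H2-M1: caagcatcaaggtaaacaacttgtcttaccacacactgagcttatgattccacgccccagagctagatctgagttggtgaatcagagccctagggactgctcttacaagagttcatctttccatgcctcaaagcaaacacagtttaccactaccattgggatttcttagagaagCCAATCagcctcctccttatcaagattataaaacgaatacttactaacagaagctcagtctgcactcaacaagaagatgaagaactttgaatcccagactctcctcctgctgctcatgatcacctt
H2-Q4: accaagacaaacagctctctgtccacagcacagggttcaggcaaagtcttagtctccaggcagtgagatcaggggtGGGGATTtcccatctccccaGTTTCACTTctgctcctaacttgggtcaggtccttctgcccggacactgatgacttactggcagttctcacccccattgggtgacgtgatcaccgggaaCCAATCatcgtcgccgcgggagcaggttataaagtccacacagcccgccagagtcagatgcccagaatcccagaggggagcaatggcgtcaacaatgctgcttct

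Levels below are log2 RMA signals, in which a difference of 1 is 2-fold, and a change is knockout minus wild type on that scale. Over all genes tested, Pearson's r was 0.814 to 0.837 between knockout 2 and the wild-type arrays, 0.903 to 0.927 between knockout 5 and the wild-type arrays, and 0.984 to 0.993 among the wild-type arrays. Knockout 2 thus stood furthest apart. The standard deviation over all genes tested was 0.802 for knockout 2, 0.906 for knockout 5 and 0.991 to 1.017 for the wild-type arrays. Signals thus had a narrower spread on both knockout arrays. How far this narrower spread moved bright genes down or dim genes up was not tested. The typical distance of a gene from its wild-type mean (median absolute difference over all genes) came to 0.23 for knockout 2, 0.14 for knockout 5 and 0.015 to 0.017 for the wild-type arrays. For the H2- genes the same distance was 0.21, 0.13 and 0.018 to 0.021. RMA can return 1 value for several arrays, and 9 of the 29 genes had the same value on all 3 wild-type arrays, against 39.1% of all genes. For those 9 the fit takes its error from the knockout arrays and from other genes. Detection above background was not called, so a level does not show that a gene was expressed. The 17 cartilage markers checked against the label had summed linear signals of 952 and 1089 on the knockout arrays. The wild-type arrays had 1271 to 1277. Summed over all genes, knockout 2 had 763449.5 and knockout 5 had 833178.8, while the wild-type arrays had 843214.7 to 854044.5. In limma 3 of the 17 markers were called lower, beside 2.18% of all genes. They were Sox9 (-0.42, adjusted p = 0.0229), Comp (-0.41, adjusted p = 0.0327) and Col9a3 (-0.61, adjusted p = 0.0422). No gene of the table passed with the array date as a block, quantile normalisation or cyclic loess, so none of the 3 passed there.

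No H2- gene passed the test between the groups. In limma, 0 of 29 passed an adjusted p of 0.05, where 3.73% of all genes did, and 4 had an unadjusted p under 0.05 (13.8%, against 18.2% of all genes). The groups did not overlap in 6 of 29 (20.7%, against 31.5% of all genes), with knockout above wild type in 3 (13% of all genes) and below it in 3 (18.6% of all genes). The median change was -0.045 over the 29 genes, -0.022 over class I and -0.075 over class II, beside -0.0083 over all genes. The class I median turned to 0.050 with each array centred on its median, 0.036 with cyclic loess, 0.018 with quantile normalisation and 0.014 after centring and scaling. The class II median was -0.0027, -0.017, -0.040 and -0.058 under the same 4 scalings. The difference between the classes was not tested.

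Most class II genes were split between the 2 knockout mice. In 6 of the 8, knockout 2 lay to one side of wild type on its own array date and knockout 5 to the other side on its date, and in 0 of 8 to the same side. Over all genes 20.1% were split in this way and 43.9% lay on the same side on both dates, with 36.0% at no difference on at least 1 date. Among class I genes 8 of 20 were split, 7 lay on the same side and 5 were at no difference on at least 1 date. Whether the split differs between the classes was not tested. The class II median was -0.19 for knockout 2 against wild type 3, and 0.063 for knockout 5 against wild types 4 and 6. In bulk tissue, fewer cells of a type and less RNA per cell cannot be told apart.

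H2-Ab1, the beta chain of the peptide-presenting I-A molecule, had 6.51 in knockout 2 and 5.47 in knockout 5, against 5.72 on all 3 wild-type arrays. One knockout mouse was thus above and the other below every wild-type value, with a fitted change of 0.27 (SE 0.35, adjusted p = 0.616). H2-Aa, its alpha chain partner, had 4.12 in both knockout mice and in wild types 3 and 6, and 4.18 in wild type 4. The alpha chain therefore did not share the spread of the beta chain, with a change of -0.021 (SE 0.029, adjusted p = 0.642).

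H2-Eb1, the beta chain of the second presenting molecule I-E, ran the other way, at 5.57 in knockout 2 and 6.33 in knockout 5, against 6.12, 6.12 and 6.13 in wild type. Its change was -0.18 (SE 0.26, adjusted p = 0.660), which turned to 0.0041 with cyclic loess. H2-Eb2, a related beta chain gene next to it, had 4.78 and 5.38 in knockout, against 5.16, 5.21 and 5.19 on the wild-type arrays. Both beta chain genes were thus low in knockout 2 and high in knockout 5. H2-Ea, the gene of the I-E alpha chain and a transcribed pseudogene in the reference strain, had 5.09 and 5.06 in knockout, against 5.002, 5.06 and 5.06 on the wild-type arrays.

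The class II genes that act inside the cell followed H2-Eb1 with 1 exception. H2-DMa, a chain of the DM molecule that loads peptides onto class II, had 4.54 in knockout 2 and 5.605 in knockout 5, against 5.33 on all 3 wild-type arrays. H2-Ob, the beta chain of DO, which restrains DM, had 4.31 and 5.49 in knockout, against 5.45, 5.37 and 5.37 in wild type. In both genes knockout 2 was the lowest array and knockout 5 the highest. The changes were -0.25 for H2-DMa (SE 0.36, adjusted p = 0.654) and -0.49 for H2-Ob (SE 0.40, adjusted p = 0.441).

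H2-Oa, the alpha chain of DO, was the exception, at 5.85 in knockout 2 and 5.51 in knockout 5, against 5.72, 5.73 and 5.72 in wild type. It was split in the direction of H2-Ab1, opposite to its partner H2-Ob. Its change of -0.045 (SE 0.12, adjusted p = 0.830) turned to 0.087 with quantile normalisation and 0.099 with cyclic loess.

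**Figure D1:**
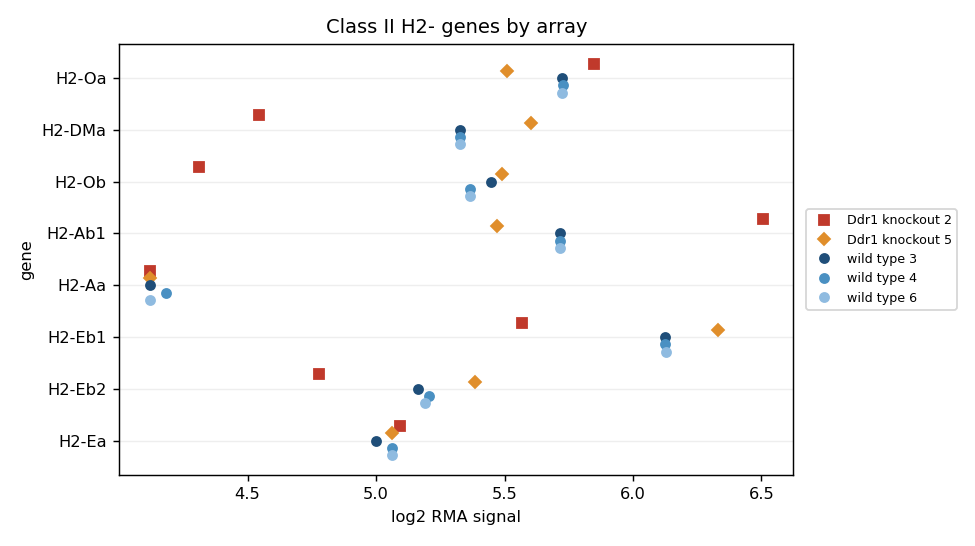
Log2 RMA signal (horizontal axis) of the 8 class II H2- genes (rows, in gene order), 1 point per array; points are to be compared within a row. H2-DMa, H2-Ob, H2-Eb1 and H2-Eb2 have knockout 2 left and knockout 5 right of the wild-type arrays, and H2-Ab1 and H2-Oa the reverse.

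Leaving out 1 knockout mouse gave calls in both directions in both classes, at shares near those of all genes. With knockout 5 left out, 16 of the 29 genes passed (55.2%, against 50.2% of all genes), with 2 higher and 4 lower in class II and 5 higher and 5 lower in class I. With knockout 2 left out, 13 passed (44.8%, against 37.7% of all genes), with 3 higher and 2 lower in class II and 3 higher and 5 lower in class I. The lone knockout array was then assumed to vary like the wild-type arrays, which had identical values for many genes, so these calls compare single arrays. H2-Ab1 is an example of the turn, at 0.79 without knockout 5 and -0.24 without knockout 2.

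**Figure D2:**
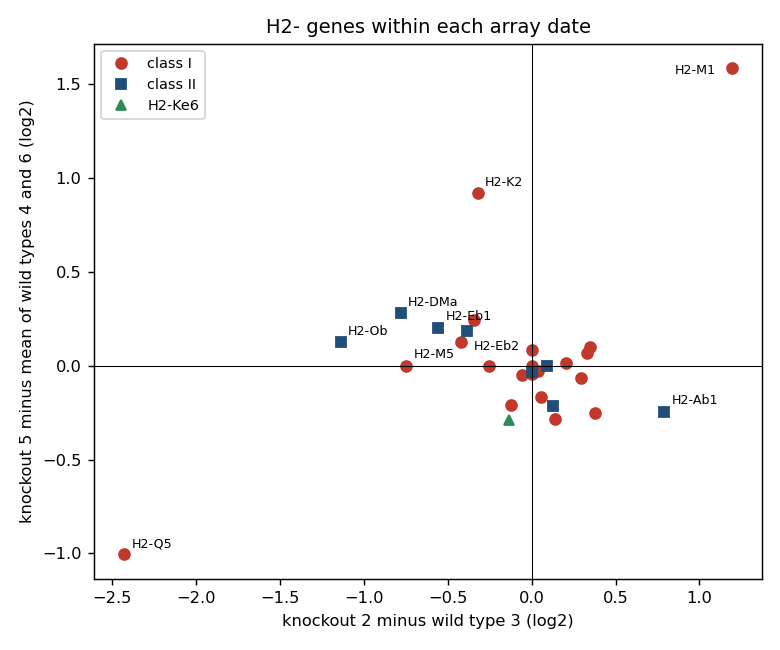
Change of each H2- gene within array date 1 (knockout 2 minus wild type 3, horizontal) and within array date 2 (knockout 5 minus the mean of wild types 4 and 6, vertical), log2, 1 point per gene. H2-Q5 and H2-M1 lie far out in the quadrants of equal sign, and 6 of 8 class II and 8 of 20 class I genes lie in the quadrants of opposite sign.

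Class I genes included the largest changes of the 29, in 2 single genes. H2-M1, a nonclassical gene of the group known from vomeronasal sensory neurons, had 5.203 in knockout 2 and 5.31 in knockout 5, against 4.01, 3.45 and 4.01 in wild type. Both knockout mice were above every wild-type mouse, with a mean of 5.26 ± 0.078 (SD, n = 2) in knockout and 3.82 ± 0.32 (SD, n = 3) in wild type. In limma the difference came to 1.44 (SE 0.22, adjusted p = 0.0693), with 1.19 within array date 1 and 1.58 within date 2. Among the alternatives that keep all 5 arrays, it passed only when each array was centred on its median (1.51, adjusted p = 0.0444). It was then 1 of 29 H2- genes (against 3.18% of all genes). With the array date as a block (0 of 29 members and 0% of all genes passing) its adjusted p was 0.144.

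H2-Q5, a transcribed pseudogene of the Q group, had 4.74 in knockout 2 and 6.27 in knockout 5, against 7.17, 7.39 and 7.17 in wild type. Both knockout mice were below every wild-type mouse, but they differed from each other by more than knockout 5 differed from wild type. The mean was 5.51 ± 1.08 (SD, n = 2) in knockout and 7.24 ± 0.13 (SD, n = 3) in wild type, and the change was -1.73 (SE 0.53, adjusted p = 0.220). It was -2.43 within array date 1 and -1.01 within date 2.

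H2-Q4, the gene with the second-lowest adjusted p, had a small difference, at 4.66 and 4.58 in knockout, against 4.79 on all 3 wild-type arrays. The groups did not overlap, and the change was -0.17 (SE 0.032, adjusted p = 0.0983), an error that rests on identical wild-type values. H2-Q2 had 5.74 and 6.29 in knockout, against 6.16 on all 3 wild-type arrays. H2-Q10, known as a secreted class I molecule of the liver, had 5.12 and 5.01 in knockout, inside the wild-type range of 4.74 to 5.34. All 4 Q genes had a fitted change below 0, but that of H2-Q2 (-0.15) turned to 0.040 and that of H2-Q10 (-0.023) to 0.031 with cyclic loess.

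Among the 12 H2-M genes, 6 had a change above 0, 5 below and 1 of 0, with a median of 0.0031. H2-M10.1 had 4.15 and 3.85 in knockout, against 3.80, 3.70 and 3.80 in wild type, and H2-M10.6 had 3.48 and 3.20, against 3.16, 3.10 and 3.16. Both did not overlap between the groups, with changes of 0.23 and 0.20 (limma's adjusted p = 0.399 for each), and in both knockout 5 lay nearer to wild type than knockout 2 did. The change of H2-M10.1 was 0.042 with cyclic loess, 0.068 with quantile normalisation, 0.066 after centring and scaling and 0.081 without knockout 2. That of H2-M10.6 turned to -0.15 with quantile normalisation or cyclic loess, to -0.072 after centring and scaling, and was 0.061 without knockout 2. H2-M3, which presents peptides with a formylated first residue, had 5.32 and 5.27 in knockout, against 5.32 on all 3 wild-type arrays, and H2-M10.5 had 2.85 on all 5 arrays. The change of H2-M10.5 was -0.54 with quantile normalisation, -0.45 with cyclic loess and -0.35 after centring and scaling.

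The other 15 class I genes, whose groups overlapped, ranged in change from -0.36 for H2-M5 to 0.37 for H2-K2, a pseudogene, with no adjusted p under 0.399. In H2-M5, knockout 2 was at 5.44 and knockout 5 at 6.13, the value of wild types 4 and 6, with wild type 3 at 6.19. In H2-K2, knockout 5 was at 4.99 and knockout 2 at 4.15, against 4.48, 4.08 and 4.06 in wild type. H2-T10, a transcribed pseudogene in the reference strain, had 5.84 and 5.64 in knockout, against 5.64, 5.64 and 5.61 in wild type. In each of the 3, 1 knockout mouse stood apart and the other lay on or near the wild-type values.

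H2-Ke6 encodes the steroid dehydrogenase also called Hsd17b8. It had 6.34 and 6.28 in knockout, against 6.48, 6.65 and 6.49 in wild type, with no overlap and a change of -0.23 (SE 0.069, adjusted p = 0.224). The change turned to 0.022 after centring and scaling.

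**Figure D3:**
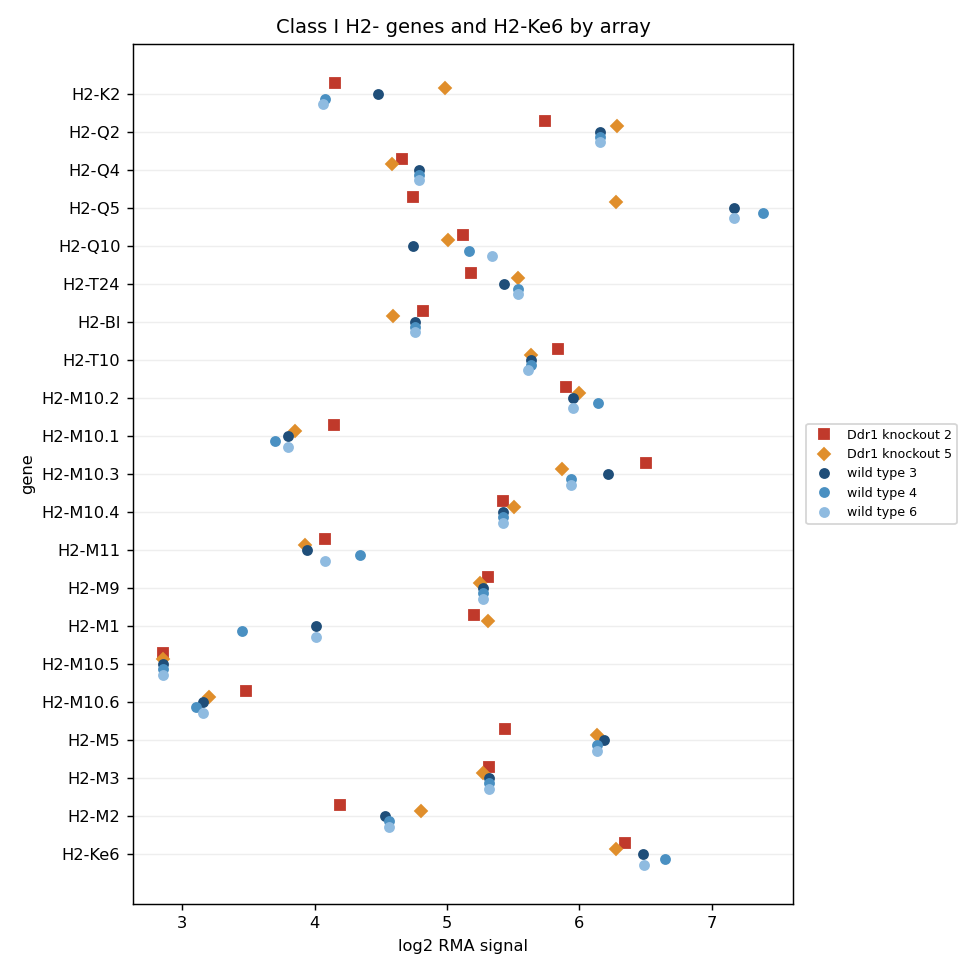
Log2 RMA signal (horizontal axis) of the 20 class I H2- genes and H2-Ke6 (rows), 1 point per array; points are to be compared within a row. In H2-M1 both knockout arrays lie right of the wild-type arrays and in H2-Q5 both lie left, and in 15 of the 20 class I rows the groups overlap.

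As genes linked to the deleted locus, the members were placed in the gene order of chromosome 17 (GRCm38.p6, order alone), where 936 tested genes could be placed. Counted in tested genes from Ddr1 at 0, class II genes lie at -87 to -75, the Q genes at -14 to -11, and H2-T24, H2-Bl and H2-T10 at 14, 16 and 17. H2-Q5 lies at -12 and H2-M1 at 27. Ddr1 itself had 5.96 and 5.80 in knockout, against 6.02 on all 3 wild-type arrays. Its change of -0.14 (SE 0.058, adjusted p = 0.377) turned to 0.035 with cyclic loess, 0.011 with quantile normalisation and 0.0385 after centring and scaling. Which part of the transcript the deletion removes is not given in the labels, so Ddr1 does not check them.

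Of the 50 tested genes nearest to Ddr1, 25 on each side, 12 are H2- genes. In limma 0 of the 50 passed the threshold (3.73% of all genes), and 9 of the 50 had an unadjusted p under 0.05 (18.2% of all genes). Their changes were below 0 in 35 genes (70.0%, against 51.1% of all genes) and the groups did not overlap in 17 (34.0%, against 31.5% of all genes), 15 lower and 2 higher (18.6% and 13% of all genes). The median of -0.12 was -0.11 within array date 1 and -0.073 within date 2, but it turned to 0.021 with cyclic loess, 0.0085 with quantile normalisation and 0.0030 after centring and scaling. The direct neighbours before Ddr1 had no call, with Gtf2h4, a subunit of the transcription factor TFIIH, at 6.30 and 6.22 in knockout, against 6.22 on all 3 wild-type arrays. Vars2, the mitochondrial valyl-tRNA synthetase, had 5.39 and 6.17, against 6.25 on all 3 wild-type arrays. Mucl3 had 4.97 on all arrays.

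After Ddr1, the early response gene Ier3 had 5.19 and 5.14 in knockout, against 5.43, 5.34 and 5.31 in wild type. Flot1, a membrane raft protein, had 5.75 and 6.47, against 5.94, 6.05 and 6.05, and the tubulin gene Tubb5 had 5.16 in both knockout mice, against 5.16 to 5.17. Ier3 was thus lower in both knockout mice without passing the test (adjusted p = 0.158), and Flot1 was split between them.

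Between the outermost members, H2-K2 and H2-M2, 157 genes were tested and 7 passed the threshold, 3 higher and 4 lower, none of them an H2- gene. That is 3 of 157 higher beside 1.55% of all genes and 4 of 157 lower beside 2.18%. The 4 that fell were Ddah2 (-0.93, adjusted p = 0.0306), which breaks down inhibitors of nitric oxide synthesis, the GABA receptor gene Gabbr1 (-0.57, adjusted p = 0.0207), the lysosomal sialidase Neu1 (-0.56, adjusted p = 0.0213) and Nelfe (-0.39, adjusted p = 0.0304), a factor that pauses RNA polymerase II. The 3 that rose were the olfactory receptor gene Olfr103 (1.40, adjusted p = 0.0442), Rnf5 (0.49, adjusted p = 0.0475), a ubiquitin ligase of the endoplasmic reticulum, and Ly6g6f (0.41, adjusted p = 0.0232). The nearest of the 7 to Ddr1 was Ly6g6f, at -30. None of these 7 was chosen by the rule for named genes, and all were named after their values were seen. No gene of the table passed in limma with the array date as a block (3829 with an unadjusted p under 0.05), quantile normalisation (3761 likewise) or cyclic loess (3919 likewise), so none of the 7 passed there.

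**Figure D4:**
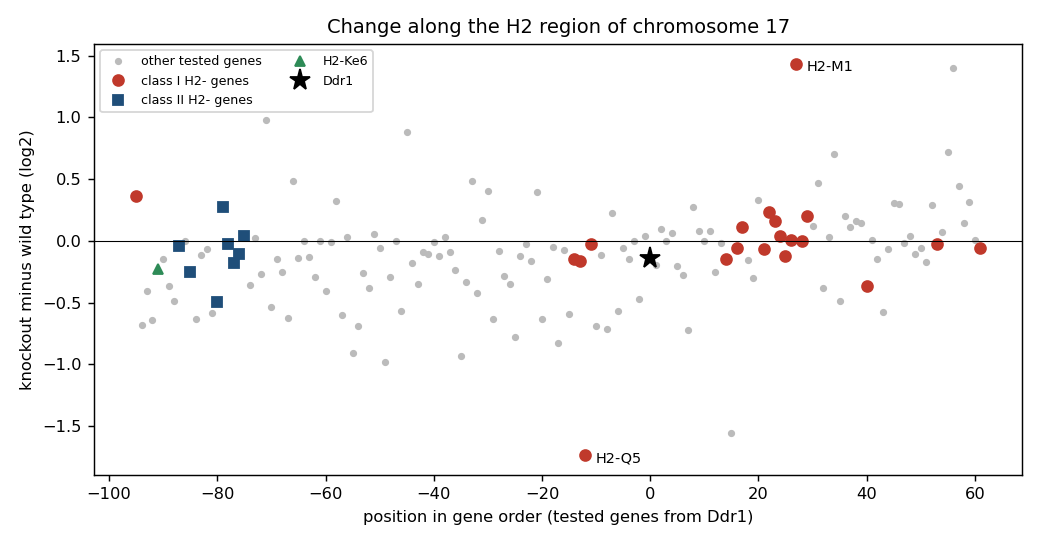
Change (knockout minus wild type, log2, vertical axis) of the 157 tested genes between H2-K2 and H2-M2, placed by gene order counted in tested genes from Ddr1 (horizontal axis), 1 point per gene. The H2- genes lie on both sides of 0, with H2-Q5 at -1.73 and H2-M1 at 1.44 apart from the other members.

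As genes of immune cells, the members were set beside their partners. In the class I pathway list, 0 of 16 measured genes passed in limma, where 3.73% of all genes did. The median change was -0.054, beside -0.0083 over all genes. That of the list turned to 0.018 with each array centred on its median, 0.0059 with quantile normalisation and 0.015 with cyclic loess. B2m, the light chain shared by class I molecules, had 4.01 and 4.13 in knockout, against 3.70, 3.74 and 4.19 in wild type. Tap2, 1 chain of the transporter that brings peptides to class I, had 5.68 and 5.90, against 6.51, 6.33 and 6.28, and lay lower in both knockout mice (-0.58, SE 0.11, adjusted p = 0.0984). Tap1, the other chain, had 5.66 and 5.43 in knockout, against 5.66 on all 3 wild-type arrays, so the pair did not share a pattern.

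Of the other loading genes, Tapbp and Psmb9 were lowest in knockout 2. Tapbp, the chaperone tapasin that bridges class I and the transporter, had 4.14 in knockout 2 and 6.07 in knockout 5, against 6.24, 6.07 and 6.07 in wild type. The proteasome subunit Psmb9 had 5.73 and 6.60, against 6.72, 6.91 and 6.75. Psmb8, a related subunit that is also on the interferon list, had 5.598 and 5.47, against 5.598 on all 3 wild-type arrays. Tap1, Tap2, Psmb8 and Psmb9 lie between H2-K2 and H2-M2, so they are also among the 157 genes counted above. Nlrc5, the coactivator of class I genes, had 7.996 and 8.10, inside or just above the wild-type range of 7.46 to 8.06.

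In the class II pathway list, 0 of 11 measured genes passed (3.73% of all genes) and the median was 0.034 (-0.0083 over all genes). Cd74, the invariant chain that guards class II on its way through the cell, had 4.62 and 4.52 in knockout, against 4.52 on all 3 wild-type arrays. Ciita, the coactivator of class II genes, had 5.35 and 5.48, against 5.35 on all 3 wild-type arrays, and the protease Ctss had 5.61 and 6.04, against 5.61. Rfxank, a subunit of the RFX complex that binds the X box, had 5.59 and 6.02 in knockout, against 6.12, 6.09 and 6.09 on the wild-type arrays, and its partner Rfxap had 5.78 and 5.95, against 5.95. Both were below every wild-type array in knockout 2, as were H2-DMa, H2-Ob, H2-Eb1 and H2-Eb2, and 41.4% of all genes. Rfx5, another RFX subunit, went the other way, at 5.35 in knockout 2 and 5.11 in knockout 5, against 5.11 on all 3 wild-type arrays. On this list knockout 2 lay above every wild-type array in 5 of 11 genes (45.5%, against 28.7% of all genes). It lay below them in 2, Rfxank and Rfxap (18.2%, against 41.4% of all genes). Rfxank, Rfxap and Rfx5 were named after their values were seen. The interferon response list had 0 of 25 passing (3.73% of all genes) and a median of 0. Its groups did not overlap in 8 genes (32.0%, against 31.5% of all genes), 2 higher and 6 lower (13% and 18.6% of all genes).

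Markers of immune cells, those that carry class II and others, were followed with the same fit. Of 83 genes on 7 immune cell lists, 1 passed in limma, where 3.73% of all genes did. It was the mast cell IgE receptor chain Ms4a2, at 4.40 and 4.21 in knockout, against 3.31 on all 3 wild-type arrays (0.998, adjusted p = 0.0226). Its error thus rests on identical wild-type values. Like every gene of the table, Ms4a2 did not pass with the array date as a block, quantile normalisation or cyclic loess. The median change of the 83 genes was 0.0215, with 43 above and 31 below 0. The groups did not overlap in 25 of the 83 (30.1%, against 31.5% of all genes), 17 higher and 8 lower (13% and 18.6% of all genes). By list, 0 of 11 B cell, 0 of 14 T and NK cell, 0 of 16 macrophage and monocyte, 0 of 11 dendritic cell, 0 of 13 neutrophil, 0 of 10 pan-leukocyte and 1 of 8 mast cell markers passed. The list medians ran from -0.10 for pan-leukocyte to 0.13 for B cell markers. Endothelial markers, another cell type that such tissue can hold, had 0 of 10 passing (3.73% of all genes) and a median of -0.25 (-0.0083 over all genes).

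B cell markers had summed linear signals of 479.6 and 483 in knockout, against 418, 432 and 427 on the wild-type arrays. Cd79a, a chain of the B cell receptor complex, had 5.21 and 5.27, against 4.72, 4.97 and 4.94 (0.37, adjusted p = 0.169). Vpreb1, named after its values were seen, had the highest change of the list (0.63, limma's adjusted p = 0.0639). It passed with each array centred on its median (adjusted p = 0.0348) and after centring and scaling (adjusted p = 0.0484). It did not pass with the array date as a block, quantile normalisation or cyclic loess. The list median was 0.26 within array date 1 and 0 within date 2. Of the 11 genes, 8 had a change above 0, 2 below (Pax5 and Blk, 18.2% against 51.1% of all genes) and 1 of 0. The groups did not overlap in 2 (18.2%, against 31.5% of all genes), both higher (13% of all genes). The class II genes summed to 318 and 357, against 344 to 345, so their sums were not ordered like those of the B cell list.

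No marker of the other leukocytes named here passed the test. Ptprc (CD45), carried by all leukocytes, had 5.44 and 5.13 in knockout, against 4.77, 4.74 and 4.41 in wild type (0.64, adjusted p = 0.178). It had the highest change of the 10 pan-leukocyte markers, of which 6 were below 0. Cd3e, a chain of the T cell receptor complex, had 6.12 and 6.50, against 5.80, 5.995 and 5.995 (0.38, adjusted p = 0.337). Csf1r, the growth factor receptor of macrophages, had 5.08 on all 5 arrays. Itgax (CD11c), a dendritic cell marker, had 4.74 in both knockout mice, against 4.68, 4.74 and 4.74.

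Summed macrophage markers were at 498.5 and 580 in knockout, against 501, 518 and 515 on the wild-type arrays, and dendritic markers at 581 and 625, against 603 to 628. In both lists, as in class II, knockout 2 had the lowest sum, and its sum over all genes was also the lowest of the 5 arrays. The part that these cells have in the split of the class II genes was not tested.

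**Figure D5:**
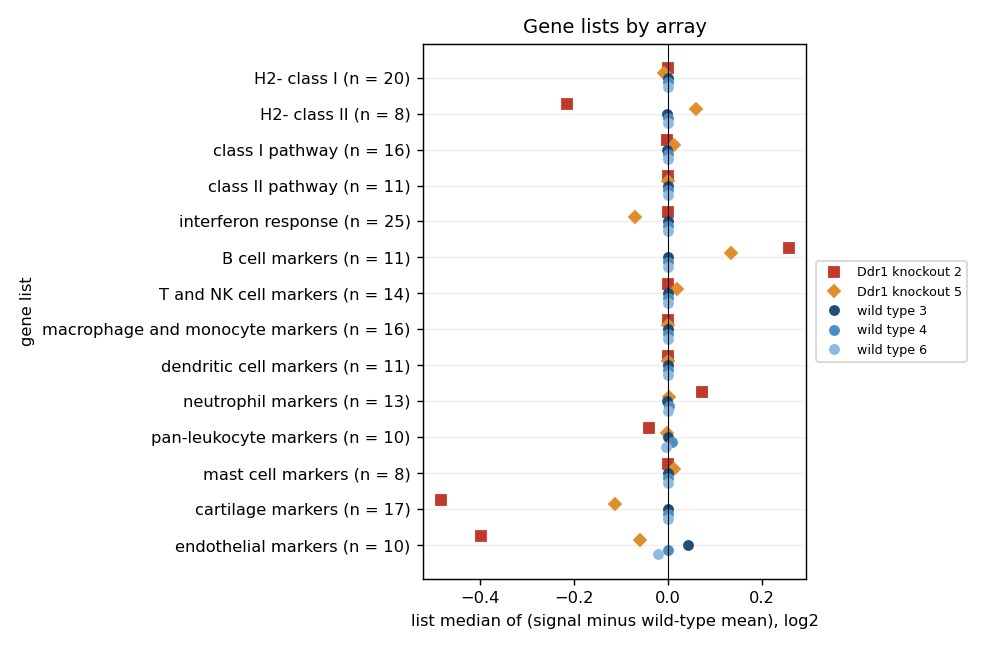
Median over each list (rows, with the number of measured genes) of the signal minus the wild-type mean, log2, 1 point per array. Class II H2- genes are at -0.22 in knockout 2 and 0.059 in knockout 5, and B cell markers are at 0.26 and 0.13, while the wild-type arrays lie near 0.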

How the data were processed

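The deposited table holds log2 RMA signals that the authors made with Affymetrix Expression Console and RMA, per the submitters' processing notes. Their versions and the build were not given in the sources used here. Of 35556 rows, 21789 had 1 gene symbol in the platform annotation, 1621 had several and 12146 had none, and the brightest row of each gene gave 19938 genes. Groups were compared with limma 3.58.1 (R 4.3.3) on all 5 arrays, two-sided, with Benjamini-Hochberg adjustment over all genes and a threshold of 0.05, after a check on simulated data. There, 51% of 100 genes with a log2 change of 1 and 82% of 100 with a change of 2 were called, with 8 false calls. The simulation gave both groups the same spread and no identical values, unlike these arrays, so its rates need not hold here. The number of arrays limits the precision. The dates in the array names served as a block in an alternative. The members, gene lists and tests were chosen with earlier results of these data known. By the rule, genes given value by value were those passing among the members, the gene lists and the 25 tested genes on each side of Ddr1. The rule also took members whose groups did not overlap with the 12 largest changes, the classical genes, fixed partners and the 3 nearest neighbours of Ddr1 on each side. Outside the rule, values were also given for H2-Eb2, H2-Ea, H2-Q2, H2-Q10, H2-M3, H2-M5, H2-K2, H2-T10, H2-M10.5, Rfxank, Rfxap and Rfx5. Changes alone were given outside the rule for Ddah2, Gabbr1, Neu1, Nelfe, Olfr103, Rnf5, Ly6g6f and Vpreb1. H2-M5 and H2-K2 were given as the extremes of the class I genes whose groups overlapped. Of the class II pathway list 11 of 13 genes, of the interferon list 25 of 29 had a row of their own. Gene order came from RefSeq (GRCm38.p6) by gene identifier. The array's own build is unknown, so positions of probes were not used. Alternatives changed the array date, the scaling between arrays, the rows of a gene, a filter on dim genes, the variance model and the arrays kept.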

Additional observations from a re-analysis of the deposited data

How the results depend on the processing

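No paired analysis was possible because the groups share no replicate number. The array date was the matching that could be fitted, as a block. Calls over all genes, 744 as reported, were 0 with the array date as a block, quantile normalisation or cyclic loess, 150 with arrays centred and scaled, and 0 to 9999 with an array left out (0 without wild type 3, 4 or 6, where 2312 to 2458 had an unadjusted p under 0.05, 7513 without knockout 2 and 9999 without knockout 5). The other alternatives gave 585 to 756. Calls among H2- genes were 0, except 1 (H2-M1) with each array centred on its median, and 0 to 16 with an array left out. Calls on the gene lists, 4 as reported, were 0 with the array date as a block, quantile normalisation or cyclic loess, 2 with arrays centred and scaled, and 0 to 89 with an array left out. The class I median (-0.022) was -0.0042 with the array date as a block, 0.050 with arrays centred on the median, 0.018 with quantile normalisation, 0.036 with cyclic loess, 0.014 with arrays centred and scaled, -0.054 without genes of a mean under 4, 0 within each array date, and -0.038 to 0 with an array left out. The class II median (-0.075) was -0.19 within date 1, 0.063 within date 2 and -0.22 to 0.059 with an array left out. The median of the 157 genes between the outermost members (-0.089) was -0.017 with arrays centred on the median, -0.036 with quantile normalisation, -0.014 with cyclic loess, -0.0315 with arrays centred and scaled, -0.0098 within date 2 and -0.10 to -0.018 with an array left out. In each case the cause was not tested.

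Over the settings other than leaving out an array or taking 1 date, 230 of 258 values of single H2- genes were not of the opposite sign. The others, in 11 genes, were. With arrays centred on the median these were H2-Aa (0.051), H2-Bl (0.018), H2-M10.2 (0.0037), H2-M2 (0.018), H2-M3 (0.050), H2-Oa (0.028) and H2-Q10 (0.050). With quantile normalisation they were H2-M10.2 (0.082), H2-M10.6 (-0.15), H2-M3 (0.084), H2-Oa (0.087), H2-Q10 (0.031) and H2-Q2 (0.0054), and Ddr1 was at 0.011. With cyclic loess they were H2-Eb1 (0.0041), H2-M10.2 (0.11), H2-M10.6 (-0.15), H2-M3 (0.071), H2-Oa (0.099), H2-Q10 (0.031) and H2-Q2 (0.040), and Ddr1 was at 0.035. With arrays centred and scaled they were H2-Ke6 (0.022), H2-M10.2 (0.10), H2-M10.6 (-0.072), H2-M3 (0.042), H2-Oa (0.096), H2-Q10 (0.0014) and H2-Q2 (0.027), and Ddr1 was at 0.0385. With the array date as a block H2-Q10 was at 0.018. H2-M10.5, with a change of 0 as reported, can have no opposite sign, so its shifts are not counted here.

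With 1 array left out, sign changes gave ranges of -0.24 to 0.79 for H2-Ab1, -0.17 to 0.058 for H2-Bl, -0.78 to 0.28 for H2-DMa, -0.56 to 0.20 for H2-Eb1, -0.41 to 0.20 for H2-Eb2, -0.049 to 0.78 for H2-K2, -0.16 to 0.48 for H2-M10.3, -0.36 to 0.25 for H2-M2, -0.028 to 0.040 for H2-M9, -0.21 to 0.12 for H2-Oa, -1.08 to 0.099 for H2-Ob, -0.19 to 0.11 for H2-Q10, -0.42 to 0.13 for H2-Q2 and -0.32 to 0.035 for H2-T24. All of these turned on leaving out a knockout array, and H2-Q10 also on leaving out wild type 4 or 6.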

Other observations

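The 8 array rows that carry several symbols including an H2- gene belong to no single gene. They entered only the alternative that kept rows with several symbols. In 5 of them the mean of the knockout arrays was below that of the wild-type arrays, with differences from -0.58 to -0.15, and in 3 it was above, with differences from 0.20 to 0.60. The largest positive difference came from 1 row at 6.37 in knockout 2 and 7.24 in knockout 5, against 5.86, 6.37 and 6.37 in wild type.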
